A study of Homo sapiens with 2 samples.

Results

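The miRNAs described here are grouped by a route of maturation that does not need the nuclear enzyme Drosha: the miR-320 entries, miR-484 and both arms of miR-877. They were taken by name from a table of 2218 mature human miRNAs, and all 8 names were present (hsa-miR-320a, hsa-miR-320b, hsa-miR-320c, hsa-miR-320d, hsa-miR-320e, hsa-miR-484, hsa-miR-877-5p and hsa-miR-877-3p, written below without the species prefix). Of these 8, 7 had a read in at least 1 library and miR-320e had none. The table holds 2 small RNA libraries of K562, a human erythroleukaemia cell line grown in suspension. In the control library the cells carried a GFP lentivirus, and in the other a lentivirus driving QKI5, a form of the RNA-binding protein Quaking that stays in the nucleus. Both groups were thus transduced, each gave 1 library, and no untransduced cells were part of the comparison. The QKI5 transcript was not analysed here, so its level was not checked, and the labels name no promoter for either virus. The question is which mature miRNAs change in level with extra QKI5. With 1 library per group no difference has a replicate check, no test of the treatment is possible, and every interval below is a 95% interval for counting error only.

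Most miRNAs are cut from a long primary transcript by Drosha and its partner DGCR8, exported as a hairpin and trimmed by Dicer. The precursors of miR-320a and miR-484 are known to bypass the first cut. RNA polymerase II starts transcription at or near the hairpin, and the precursor carries a methylated guanosine cap. miR-877 is a mirtron, a short intron that the spliceosome excises and that folds into a hairpin after debranching. For miR-320b to miR-320e the grouping rests on sequence, and Drosha dependence was not measured here for any of the miRNAs. QKI5 binds RNA at ACUAA-like elements and is known as a regulator of splicing. miR-320a has been studied as a repressor of the transferrin receptor, through which red cell precursors take up iron, and miR-484 as a repressor of the mitochondrial fission factor FIS1.

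The mature sequences show which of these miRNAs can share reads and which share a seed, the bases 2 to 8 that pair with targets. RefSeq sequences (build GRCh38.p14) were matched by name for 7 of the 8, and miR-320a was not among them. The seed is in capitals, 5′ to 3′, and miR-4429 is shown because it has the seed of miR-320b.
miR-320b: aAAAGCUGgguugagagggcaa
miR-320c: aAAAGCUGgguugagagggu
miR-320d: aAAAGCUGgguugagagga
miR-320e: aAAGCUGGguugagaagg
miR-4429: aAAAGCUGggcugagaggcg
miR-484: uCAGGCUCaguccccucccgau
miR-877-5p: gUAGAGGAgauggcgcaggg
miR-877-3p: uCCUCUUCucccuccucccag

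The 7 sequences have 5 different seeds. miR-320b, miR-320c and miR-320d share theirs, while miR-320e, whose annotated 5′ end lies 1 base further in, has a seed shifted by that base. The first 19 bases of miR-320b and miR-320c are identical, and they differ by C20U, counted from the 5′ end of miR-320b. miR-320d shares the first 18 bases with miR-320b and miR-320c and differs from miR-320b by G19A. Aligned with its first base on the second base of miR-320b, miR-320e is identical at 17 of 18 bases and differs by G17A. miR-4429 differs from miR-320b by U11C, G19C and C20G over 20 bases. A read of miR-320b, miR-320c or miR-320d that stops within their first 18 bases cannot be assigned to 1 of them, and the sources used here do not say how such reads were counted.

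The 2 arms of miR-877 come from opposite ends of 1 intron. The hairpin below is that intron, with the first and last dinucleotides, the splice sites, in capitals.
MIR877 hairpin: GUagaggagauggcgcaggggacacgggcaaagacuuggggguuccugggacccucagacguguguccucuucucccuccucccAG

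The miR-877 hairpin lies at chr6:30584332-30584417 on the plus strand of GRCh38.p14 and is 86 bases long. These bases are exactly an intron of ABCF1, which encodes an ATP-binding cassette protein of translation initiation, in 3 GENCODE transcripts. miR-877-5p starts at the 5′ splice site and miR-877-3p ends at the 3′ splice site. Of 1562 human hairpins in the sequence table, 36 (2.30%) begin with GU and end with AG. miR-877-3p holds the pyrimidine tract of the intron: 90.5% of its bases are C or U, a share reached by 0.36% of the 1946 listed miRNAs with a sequence. Only 20.0% of the bases of miR-877-5p are pyrimidines.

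The miR-484 hairpin, at chr16:15643294-15643372 on the plus strand, overlaps an exon of 1 GENCODE transcript of NDE1, a centrosomal protein gene. It starts 27 bases after the start of that exon and overlaps an annotated untranslated region of the transcript. Whether this exon is the first of the transcript was not checked. miR-320b, miR-320c and miR-320d each have 2 hairpin genes, so their reads cannot be assigned to 1 locus. Of the 2 miR-320b hairpins, both on chromosome 1, 1 lies in an intron of NVL on the strand of that gene and 1 in no GENCODE host. Both miR-320c hairpins, on chromosome 18, lie in introns of ABHD3 and OSBPL1A on the opposite strand. The miR-320d hairpins, on chromosomes 13 and X, have no host, and the miR-320e hairpin lies in an intron of PRKD2 on chromosome 19. The deposited table has no coordinates, and these positions, which are not those of the authors' build, serve only to describe the genes. The letters ACUAAC or ACUAAU occurred on the sense strand of 0 of the 9 hairpins of these miRNAs other than miR-320a, whose locus was not analysed here, against 1.24% of the 643 hairpins of 71 to 86 bases. The shorter UAAC or UAAU, which the longer motif contains, occurred in 1 of the 9, that of MIR320B1, against 26.4%.

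The libraries differed in depth. The authors' values were taken as RPM (reads per 1000000). On that reading they correspond to totals of 23262340 reads for GFP and 6553945 for QKI5, so 1 read is 0.0430 RPM and 0.153 RPM. A count of 0 allows up to 3 reads, which is 0.129 RPM for GFP and 0.458 RPM for QKI5. The blood cell markers miR-223-3p and miR-142-3p lay between 8889 and 10427 RPM. The red cell precursor miRNAs miR-451a, miR-144-3p and miR-486-5p lay between 293 and 2798 RPM. Among the latter, miR-144-3p (ratio of QKI5 over GFP 0.535, 0.510 to 0.561) and miR-451a (0.782, 0.767 to 0.796) were lower with QKI5. miR-486-5p was higher (1.15, 1.11 to 1.19). Of the 8 markers of other tissues, miR-145-5p (2588 RPM with GFP and 2572 with QKI5) and miR-9-5p (378 and 332 RPM) were abundant, and miR-200c-3p was at 25.2 and 41.7 RPM. The other 5 lay at or below 3.20 RPM in both libraries, with miR-122-5p and miR-206 at 0 reads with QKI5. Of these 5 rare markers, 3 had higher RPM with QKI5: the muscle miR-133a-3p (2 reads with GFP and 6 with QKI5, ratio 10.6, 1.90 to 108), the stromal miR-143-3p (7 and 11 reads, 5.58, 1.97 to 17.0) and the epithelial miR-205-5p (21 and 21 reads, 3.55, 1.84 to 6.83). These ratios stand beside those of the rare miR-320c and miR-877-3p and of miR-877-5p below, and the part of the markers in those results was not tested.

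The 8 miRNAs made up a small part of the small RNA pool, 0.0449% of the listed miRNA reads with GFP and 0.0628% with QKI5. miR-484 held 53.0% of their reads with GFP and 60.6% with QKI5. The order of levels was the same in both libraries: miR-484, miR-320a, miR-320b, miR-877-5p, miR-320c, miR-877-3p, miR-320d. Neighbours in this order were apart beyond counting error in both libraries, except miR-877-3p and miR-320d, with 12 and 9 reads with GFP and 10 and 5 with QKI5. Mature miRNAs are of similar length, so RPM was compared between them directly. Preferences of library preparation for particular ends were not tested.

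**Figure D1:**
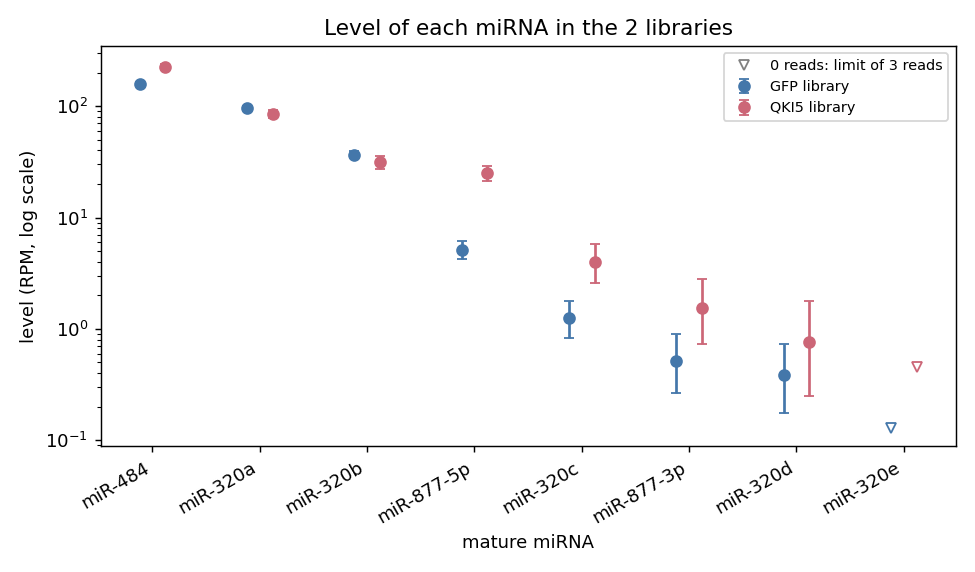
Level in RPM (log axis) of each of the 8 miRNAs in the GFP library (blue) and the QKI5 library (red), with exact Poisson 95% intervals. Levels run from 227 RPM for miR-484 with QKI5 down to miR-320e, whose open triangles mark the limit that 0 reads allow, and the libraries stand farthest apart at miR-877-5p.

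Of the 400 most abundant miRNAs by mean RPM, 4 belong here: miR-484, miR-320a, miR-320b and miR-877-5p. Calling a miRNA higher or lower when its log2 ratio (QKI5 over GFP, with a pseudocount of 0.153 RPM) was at least 1 in size, 1 of the 4 was higher and 0 were lower. Among all 400, 20.8% were higher and 7.25% lower by this rule, so 1 in 4 is near the background. Without the limit to the 400, 3 of the 7 detected miRNAs were higher and 0 lower. Beside them, 23.8% were higher and 7.27% lower among all 1995 miRNAs with a read. That wider background is uneven for rare miRNAs, because the libraries differ in depth. With this pseudocount, 0 reads with GFP and 1 with QKI5 give a log2 ratio of 1. The reverse, 1 read with GFP and 0 with QKI5, gives -0.36. The log2 ratios of the 7 detected miRNAs ranged from -0.23 to 2.24 with a median of 0.76, beside a median of 0.12 over the 1995. The median of 0.76 is the value of miR-320d, which had 9 reads with GFP and 5 with QKI5. The 1995 also include miRNAs with 1 or 2 reads, so these 2 medians do not establish a shift of the group. The 4 abundant ones had a median of 0.17, beside 0.21 over the 400. Of the 7 log2 ratios 5 were above 0, and 2, those of miR-320a and miR-320b, were below. In bulk RNA, a different level per cell and a different share of cells holding a miRNA cannot be told apart.

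miR-877-5p, the main arm of the mirtron, differed most. hsa-miR-877-5p was at 5.16 RPM (120 reads) in the GFP library and 24.9 RPM (163 reads) in the QKI5 library, a ratio of 4.82 (3.79 to 6.16). Its counting intervals, 4.28 to 6.17 RPM and 21.2 to 29.0 RPM, did not overlap. Among the 400 most abundant miRNAs, 9 (2.25%), miR-877-5p included, had a log2 ratio at least as high as its 2.24. It ranked 384th with GFP and 262nd with QKI5.

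miR-877-3p, the arm from the other end of the intron, was rare. It was at 0.516 RPM (12 reads) with GFP and 1.53 RPM (10 reads) with QKI5, a ratio of 2.96 (1.14 to 7.47). miR-877-5p took 90.9% of the reads of both arms with GFP (exact binomial interval 84.7% to 95.2%) and 94.2% with QKI5 (89.6% to 97.2%). The arm shares overlapped within counting error, and the ratio of 5p to 3p reads, 10.0 with GFP and 16.3 with QKI5, differed by a factor of 1.63 (0.62 to 4.36). A change in arm use between the libraries was thus not detectable at this depth.

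hsa-miR-484, the most abundant of the group, was at 158 RPM (3673 reads) with GFP and 227 RPM (1485 reads) with QKI5. Its counting intervals, 153 to 163 RPM and 215 to 238 RPM, did not overlap, and the ratio was 1.44 (1.35 to 1.52), short of the 2-fold rule. Of the 400 most abundant miRNAs, 36.3% had a log2 ratio at least as high as its 0.52. The GC content of the mature sequence moved with the ratio across miRNAs: over the 358 of the 400 with a sequence, the log2 ratio rose by 0.27 per 10 percentage points of GC (Pearson's r 0.33 across miRNAs, which share the 2 libraries). miR-484 has 63.6% GC, above the median of 47.6%, and with this linear trend removed its log2 ratio was 0.09. The median over the 358 was then 0.21. miR-877-5p, with 65.0% GC, remained at 1.77 with the trend removed.

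**Figure D2:**
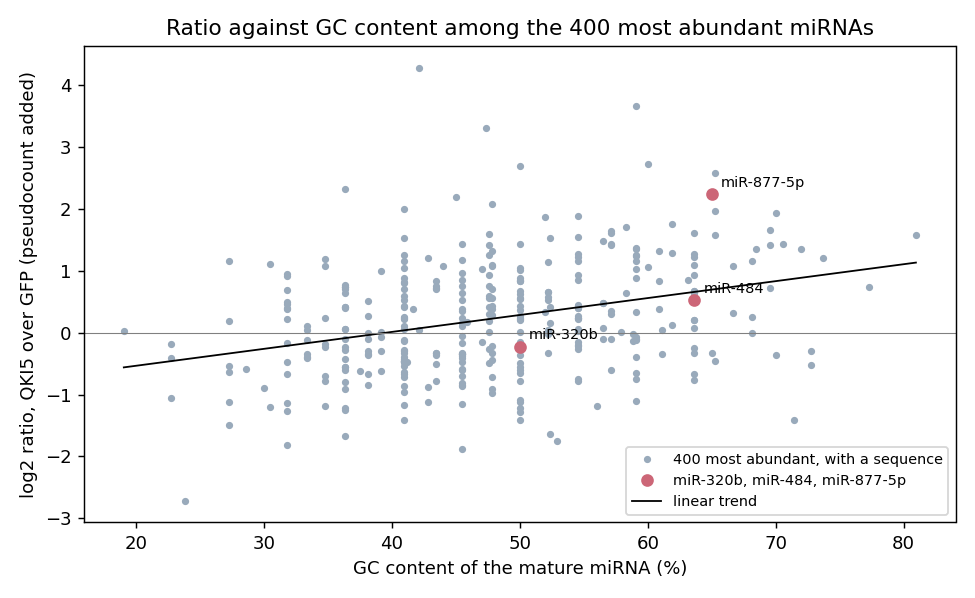
Log2 ratio of QKI5 over GFP against the GC content of the mature miRNA for the 358 of the 400 most abundant miRNAs with a sequence, with their linear trend in black. miR-484, at 63.6% GC, lies close to the trend, miR-877-5p, at 65.0%, lies above it and miR-320b, at 50.0%, below it.

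miR-320a and miR-320b, which make up nearly all miR-320 reads, were slightly lower with QKI5. hsa-miR-320a was at 95.7 RPM (2227 reads) with GFP and 84.5 RPM (554 reads) with QKI5, 1.13-fold lower (1.03 to 1.25). miR-320b was at 36.8 RPM (856 reads) and 31.4 RPM (206 reads), 1.17-fold lower (1.004 to 1.37). The Poisson intervals of miR-320b overlapped between the libraries, at 34.4 to 39.3 RPM and 27.3 to 36.0 RPM. Those of miR-320a, 91.8 to 99.8 RPM and 77.6 to 91.9 RPM, met at their edges. Their log2 ratios of -0.18 and -0.23 were -0.02 and -0.07 when each library was scaled by its listed miRNA reads instead of all its reads. That scaling moved the median of the 400 by 0.15.

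A change in the proportion of these 2 to each other was not detectable at this depth. There were 2.60 miR-320a reads per miR-320b read with GFP and 2.69 with QKI5, which differed by a factor of 1.03 (0.86 to 1.24). Multiplying a whole column by 1 factor leaves such a proportion within a library unchanged. Which reads miR-320a can share with miR-320b was not examined, because its sequence was not among those matched.

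miR-320c, which differs from miR-320b at its 3′ end, went the other way. It was at 1.25 RPM (29 reads) with GFP and 3.97 RPM (26 reads) with QKI5, a ratio of 3.18 (1.80 to 5.60), with counting intervals of 0.835 to 1.79 RPM and 2.59 to 5.81 RPM that did not overlap. It lies outside the 400 most abundant, at rank 474 by mean level. Its share of the miR-320 reads was 0.929% (0.623% to 1.33%) with GFP and 3.29% (2.16% to 4.78%) with QKI5, while the shares of miR-320a (71.4% and 70.0%) and miR-320b (27.4% and 26.0%) overlapped within their intervals. Relative to miR-320b, miR-320c was 3.73 times as frequent with QKI5 as with GFP (2.06 to 6.70). Read length, which decides whether a molecule can be told from miR-320b, was not analysed here.

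miR-320d was at 0.387 RPM (9 reads) with GFP and 0.763 RPM (5 reads) with QKI5, a ratio of 1.97 (0.52 to 6.55) that counting error leaves undetermined. miR-320e had 0 reads in both libraries, so no ratio can be given. Among the miR-320 reads, 0 of 3121 with GFP and 0 of 791 with QKI5 were listed as miR-320e, which by the limit of 3 reads allows shares of up to 0.0961% and 0.379% (exact binomial upper limits 0.118% and 0.465%). Summed, the 5 miR-320 entries were at 134 RPM with GFP and 121 RPM with QKI5, 1.11-fold lower (1.03 to 1.20), and the log2 ratio of the sum turned from -0.15 to 0.0032 when scaled by the listed miRNA reads, so its direction depends on the scaling.

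**Figure D3:**
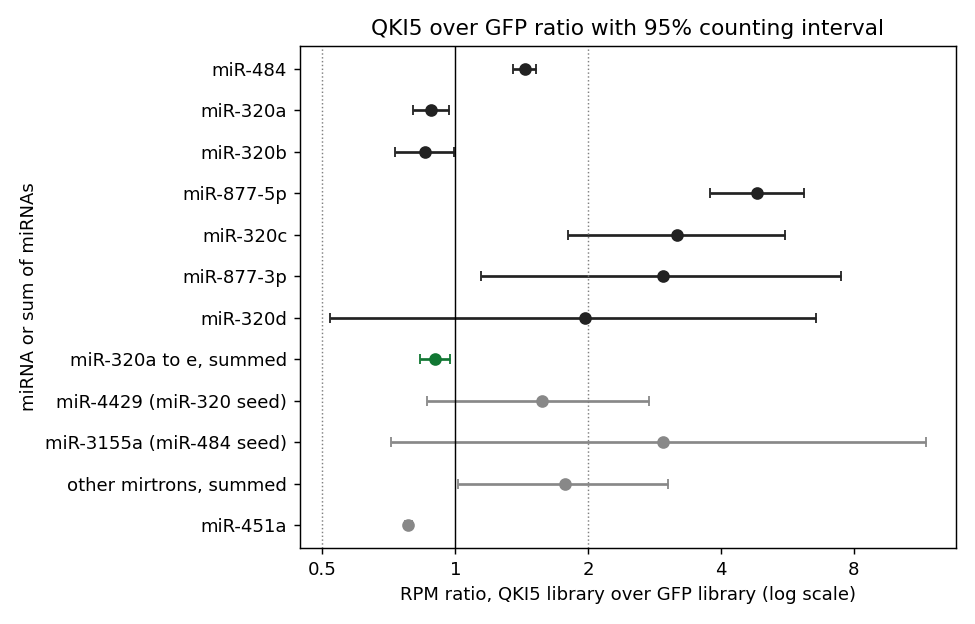
RPM ratio of QKI5 over GFP (log axis) with exact conditional binomial 95% intervals for the 7 detected miRNAs (black), the miR-320 sum (green) and related miRNAs (grey), with dotted lines at 2-fold. The interval of miR-877-5p, 3.79 to 6.16, lies wholly above 2-fold, while the intervals of miR-320a, miR-320b and their family's sum lie just below 1.

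The miRNAs were also compared with each other inside each library. Of the 21 pairs among the 7 detected miRNAs, 10 had a proportion whose interval left out no change between the libraries, without adjustment for the number of pairs. The intervals of the other 11 did not, and 9 of the 11 involve miR-320d or miR-877-3p, the ones with fewest reads. The same share among pairs of other miRNAs was not computed, so these counts are not shown to be particular to this group. Relative to miR-320a, miR-484 was 1.63 times as frequent with QKI5 as with GFP (1.45 to 1.82) and miR-877-5p 5.46 times (4.20 to 7.10). Relative to miR-484, miR-877-5p was 3.36 times as frequent (2.62 to 4.32). There were 7.13 miR-320b reads per miR-877-5p read with GFP and 1.26 with QKI5, so the 2 came close to the same level. The 2 miRNAs known for capped precursors, miR-320a and miR-484, thus stood in a different proportion to each other as well as to the mirtron, beyond counting error. These proportions were not corrected for GC content. With the GC trend removed the log2 ratio of miR-484 was 0.09, and miR-320a has no such value.

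**Figure D4:**
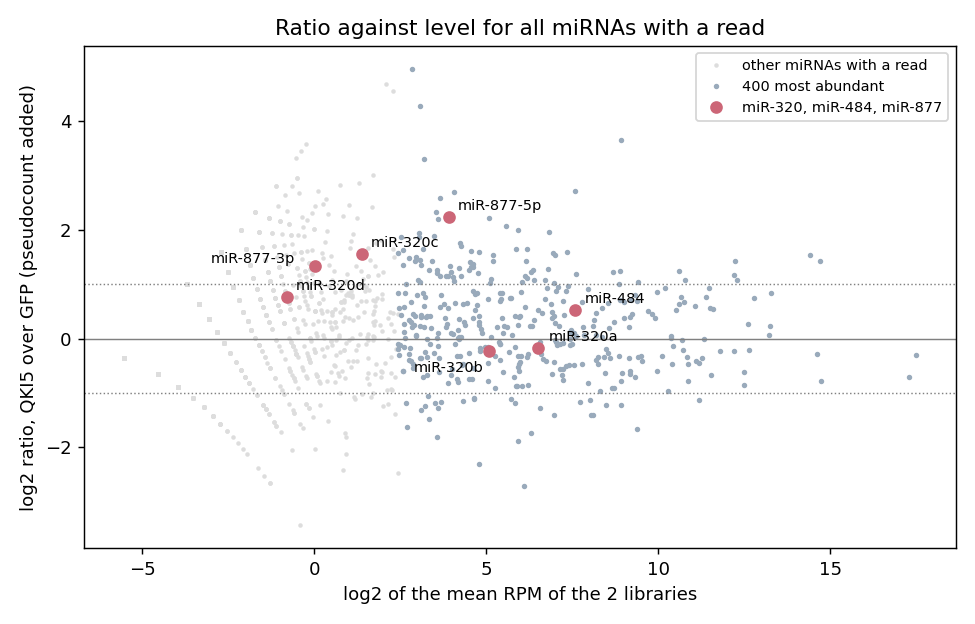
Log2 ratio of QKI5 over GFP against the log2 mean RPM of the 2 libraries for the 1995 miRNAs with a read, with the 400 most abundant in blue-grey and the 7 detected miRNAs described here in red. miR-877-5p, at 2.24, lies near the upper edge of miRNAs of its level, while miR-484, miR-320a and miR-320b lie inside the 2-fold lines.

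Other miRNAs that share a seed, and those of 11 other hairpins listed here as human mirtrons, were rare. miR-4429, with the miR-320b seed, was at 1.85 RPM (43 reads) with GFP and 2.90 RPM (19 reads) with QKI5, a ratio of 1.57 (0.86 to 2.75). The miR-484 seed is shared by miR-3155a, with 6 reads with GFP and 5 with QKI5, and miR-3155b, with 0 and 2. No listed miRNA with a sequence shares the seed of miR-320e or of either miR-877 arm. The list of 11 mirtron hairpins was not checked for completeness, and mirtrons outside it were not examined. Of the 11, 10 had an entry in the table, with 17 mature miRNAs in all. Whether each of them matures by splicing and without Drosha was not measured here. Of these 17, 13 had a read, 6 of them in both libraries, and 0 were among the 400 most abundant. The highest was miR-1226-5p, with 15 reads with GFP and 8 with QKI5, a ratio of 1.89 (0.70 to 4.76).

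Summed, these other mirtrons had 44 reads with GFP (1.89 RPM) and 22 with QKI5 (3.36 RPM), a ratio of 1.77 (1.01 to 3.03). This interval lies below that of miR-877-5p, 3.79 to 6.16. Taken singly, 6 of the 13 with a read had a log2 ratio above 0 and 7 below, with a median of -0.09. Of the reads of miR-877 and these 10 hairpins together, miR-877 had 75.0% with GFP and 88.7% with QKI5. miR-451a, which needs Drosha but is matured by the Argonaute protein AGO2 instead of Dicer, was at 2798 RPM with GFP and 2187 RPM with QKI5, 1.28-fold lower (1.26 to 1.30).

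The miRNAs nearest in level over the 2 libraries, by Euclidean distance of log2(RPM + pseudocount), were looked up for miR-320a, miR-484 and miR-877-5p. Nearest to miR-320a were miR-21-3p (distance 0.03), miR-1185-2-3p (0.13) and miR-379-3p (0.16). For miR-484 they were miR-106b-3p (0.27), miR-323a-3p (0.29) and miR-30e-5p (0.30). For miR-877-5p they were miR-34a-5p (0.33), at 4.34 RPM with GFP and 29.0 RPM with QKI5, miR-4301 (0.43) and miR-500a-3p (0.51). With 2 libraries this likeness rests on 2 values per miRNA.

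**Figure D5:**
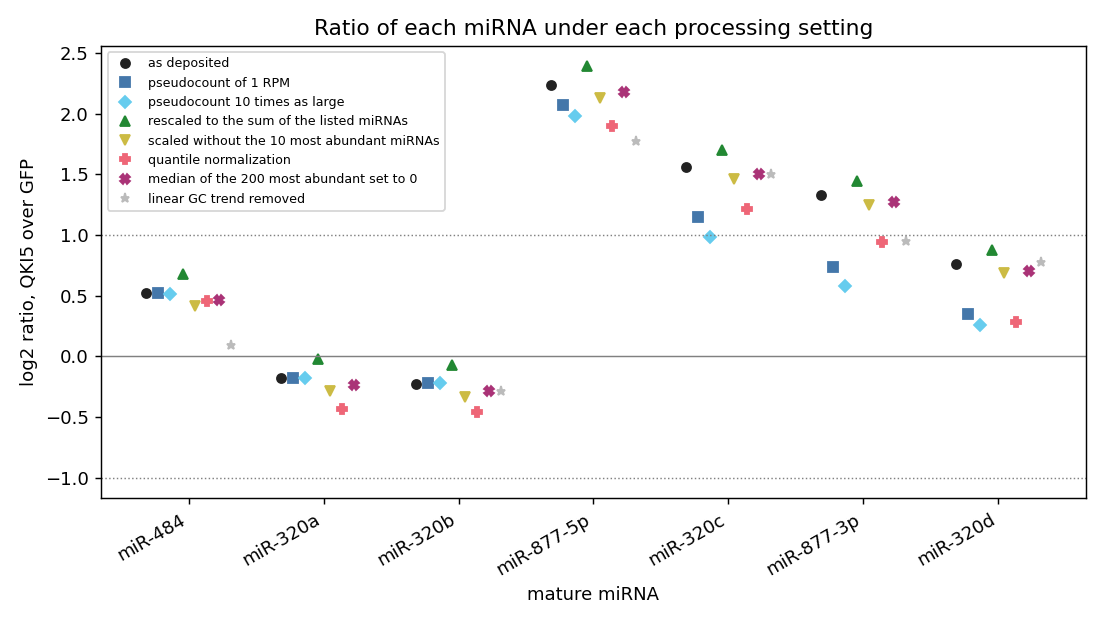
Log2 ratio of QKI5 over GFP for the 7 detected miRNAs as deposited (black circles) and under 7 alternative settings, with dotted lines at 2-fold. miR-877-5p stays between 1.77 and 2.39, miR-484 between 0.09 and 0.68, and miR-320a between -0.44 and -0.02; miR-320a has no value with the GC trend removed.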

How the data were processed

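Small RNA was enriched with a miRNA isolation kit, made into Ion Torrent libraries and read on an Ion Proton instrument, per the labels' protocols. Bowtie 0.12.3 and hg19 are named in the submitters' processing notes. For annotation, mismatches, strand and multiply mapping reads the settings are not given in the sources here. The table's name calls its values RPKM, but the authors' deposited values are RPM: 100.0% of values above 0 were whole multiples of 1 step per column (tolerance 0.1 of a read), which gave back the reads. Ratios carry exact conditional binomial 95% intervals, levels exact Poisson intervals and shares exact (Clopper-Pearson) binomial intervals. All cover counting error only, since reads lacking molecular identifiers can be copies of 1 molecule. Log2 ratios used a pseudocount of 0.153 RPM, which understates ratios of rare miRNAs. Calls needed 2-fold among the 400 most abundant.

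Named miRNAs were the 8, those sharing a seed, the listed mirtrons, miR-451a and the 3 nearest in level to miR-320a, miR-484 and miR-877-5p. Members, lists and rules were chosen with earlier results of these data known. Alternatives covered pseudocount, scaling, level filter, fold and GC content. An exact binomial test of the reads (Benjamini-Hochberg, 0.05), added after seeing the data, compares these libraries and not the conditions. Sequences came from RefSeq (GRCh38.p14) and host genes from GENCODE 29. The tools were pandas 2.3.3, scipy 1.17.1, numpy 2.4.6 and Python 3.11.15. The calculation was tested on simulated data.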

Additional observations from a re-analysis of the deposited data

How the results depend on the processing

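Over 7 alternative settings of pseudocount, scaling and GC content, 0 of 48 values of the 7 single miRNAs changed sign, and 40 of 48 stayed inside the counting interval of the value as deposited. The log2 ratio of the miR-320 sum, whose alternatives were added after seeing the data, was 0.0032 when scaled by the listed miRNA reads and -0.41 under quantile normalization. The count of miRNAs at least 2-fold higher, 1 of 4, was 0 among the 200 most abundant, which leaves out miR-877-5p, and 3 with no level filter (miR-877-5p, miR-320c and miR-877-3p), beside 23.8% of all miRNAs with a read. With a pseudocount 10 times as large the log2 ratios of miR-320c and miR-877-3p were 0.99 and 0.58. Quantile normalization gave a median log2 ratio of 0.45 over the 7 miRNAs, and 13.5% of the 400 most abundant higher and 11.25% lower. Higher ratios then made up 54.5% of the calls, against 74.1% as deposited. At 1.5-fold, 34.25% were higher and 17.5% lower. The exact binomial test of the reads called 426 of 1995 miRNAs, among them miR-320a, miR-320c, miR-484 and miR-877-5p and not miR-320b, miR-320d or miR-877-3p. The share of the 5p arm of miR-877 was computed in 1 way only. No paired analysis was possible because each group has 1 library. Depth limits miR-320d, miR-320e and miR-877-3p, with at most 12 reads per library.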
